A study of Mus musculus with 58 samples.

Results

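The comparison described here sets the mean gene expression of the entorhinal cortex (EC) against that of the primary visual cortex (PVC). The authors deposited 2 tables, 1 for each region, and each lists the same 31246 genes with 1 mean normalized count per gene. The tables were joined on the gene name, each mean was divided by the sum of its column, and genes with a mean normalized count of 100 or more in at least 1 region were kept, which left 13317 of the 31246 genes (42.6%). The measure for each gene was the log2 of its EC share over its PVC share, after 0.5 was added to each mean. A value above 0 is a larger share in the EC, a value below 0 a larger share in the PVC, and shares are given as parts per 1000000 normalized counts (ppm).

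The mice were male *APOE* targeted replacement animals on a C57Bl/6 background, aged 14 to 15 months, in which human *APOE* is expressed from the mouse promoter. In each region 10 libraries came from *APOE3/3* and 19 from *APOE3/4* mice, so that 29 libraries stand behind each mean and 58 were made in all. Animal numbers in the labels are shared by the regions, with 29 numbers in each and the same genotype for each number. All animals of both groups carry human in place of mouse *APOE*. The study's methods give 2 colonies for its mice as a whole, without saying which supplied the animals sequenced here.

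Each deposited mean pools the 29 libraries and both genotypes of its region. No spread between mice was available, so no standard error is given, no test was run, and the differences below are descriptions of size only. A large mean can rest on few of the 29 libraries, which could not be examined. How each region was dissected and its libraries were handled cannot be told apart from the region itself.

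The EC and the PVC are both cortex but are built differently. The EC links the neocortex with the hippocampus. Its superficial layers hold reelin-positive stellate cells and calbindin-positive pyramidal cells that project to the hippocampus, and a granular layer 4 is missing from most of it. The PVC is a sensory area with a well developed layer 4, which takes thalamic input from the eyes, and its activity-dependent genes respond to light. The EC is affected early in Alzheimer's disease (AD), while the PVC is largely spared until late.

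The 2 columns differed in their sums, which stood in a ratio of 1.83 (EC over PVC). Totals of single libraries were not analysed here. The kept genes held 99.7% of the sum in each region, and 0 of them were at 0 in either region. Of the kept genes, 12097 reached 100 in both regions, 1193 in the EC only and 27 in the PVC only. Because a count of 100 is a smaller share of the EC sum than of the PVC sum, the filter admits low genes of the EC more readily than low genes of the PVC. Just inside the minimum stood *Gm12963* and *Irak4*, with log2 ratios of 0.31 and 0.32. Just outside stood *Clspn*, with 2.01, and *1810021B22Rik*, with −0.16.

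Most genes took nearly the same share in both regions. The median log2 ratio was 0.02, the quartiles were −0.11 and 0.17, the standard deviation over genes was 0.44, and 11931 genes (89.6%) were within 1.5-fold. The shares of the regions had a Spearman correlation of 0.983 over the genes, which come from the same mice and are not independent of each other. At least 2-fold higher in the EC were 368 genes (2.76% of those kept), and at least 2-fold higher in the PVC were 211 (1.58%). At the smaller threshold of 1.5-fold these counts were 843 (6.33%) and 543 (4.08%). When the minimum was set on the share, at 2.02 ppm in either region, a choice made after the values were seen, the 2-fold counts were 368 and 244.

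**Figure D1:**
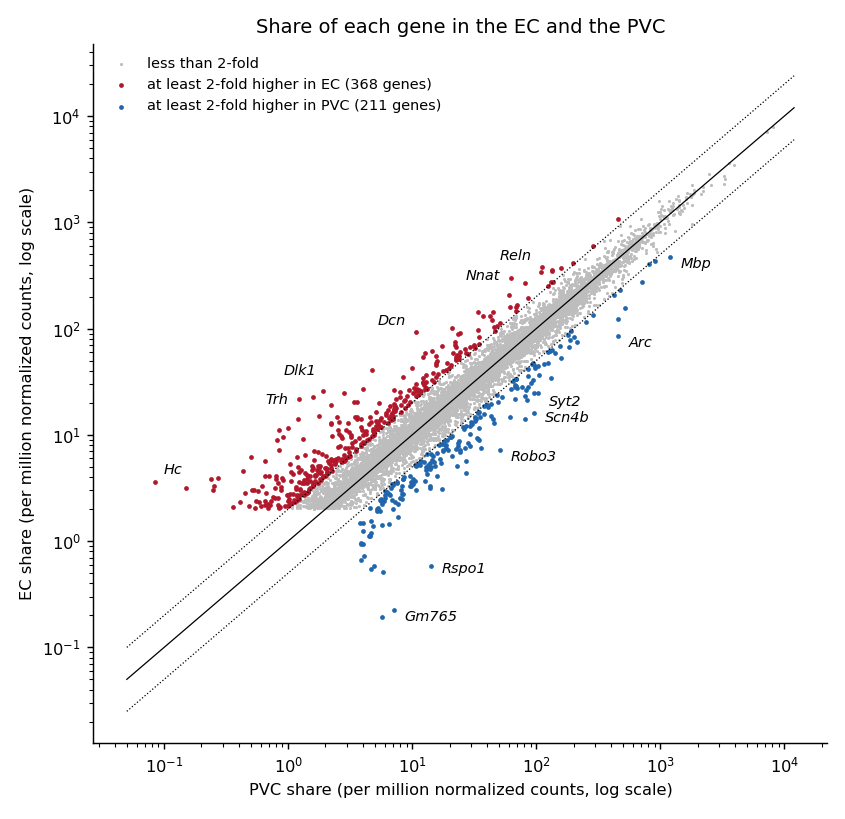
Share of each of the 13317 kept genes in the PVC (x axis) and in the EC (y axis), in ppm, both on log scales, with 1 point per gene. The solid line marks equal shares and the dotted lines 2-fold differences, with 368 genes in red above and 211 in blue below. The empty lower left corner comes from the minimum of 100 mean normalized counts.

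The gene with the highest ratio in the EC was *Hc*, which encodes complement component C5, at 3.63 ppm in the EC against 0.0841 in the PVC, a log2 ratio of 5.15. The PVC value of *Hc* rests on a mean normalized count of 2.28, so its fold is imprecise. *Trh*, the precursor of thyrotropin-releasing hormone, rests on more reads. It stood at 21.9 ppm in the EC against 1.21 in the PVC, which is 17.8-fold higher in the EC, and lies on the minus strand of chromosome 6 at 92192055 to 92194644 (NCBIM37). Others among the 15 highest were *Gpr101*, an orphan G protein-coupled receptor (log2 ratio 3.82), *Dlk1*, a Notch-related membrane protein (3.73), *Pappa2*, a protease of insulin-like growth factor binding proteins (3.51), *Dio3*, the deiodinase that inactivates thyroid hormone (3.38), the serine protease *Prss8* (4.23), the muscarinic receptor *Chrm5* (3.90), the keratin *Krt2* (3.74) and the desmocollin *Dsc3* (3.53). The rest of the 15 were *4930555I21Rik*, *Chst9*, *Olfm4*, *Capsl* and *Sec14l3*, between 3.42 and 3.71.

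At the other end were *Gm765*, with a log2 ratio of −4.92, and *Tcrb-C2*, a constant segment of the T cell receptor beta chain, with −4.82. *Igh-1b*, a constant segment of an immunoglobulin heavy chain, followed at −3.07. The immunoglobulin and T cell receptor segments have close copies between which reads can be split, so their values are uncertain. *Rspo1*, which encodes an R-spondin that strengthens Wnt signalling, stood at 0.589 ppm in the EC against 14.2 in the PVC, 23.7-fold higher in the PVC (chromosome 4, 124663674 to 124686343, plus strand, NCBIM37). *Robo3*, an axon guidance receptor, had 7.14 and 51.3 ppm, and *Scn4b*, an auxiliary subunit of voltage-gated sodium channels, 15.9 and 95.6. The other 9 of the lowest 15 were *A830009L08Rik*, *Ccbp2*, *Kcnh5*, *Cpne9*, *Xirp2*, *Cd6*, *Myl4*, *Arc* and *Npnt*, between −3.46 and −2.25. The EC mean normalized counts of *Gm765*, *Tcrb-C2* and *Rspo1* were 11.1, 9.51 and 29.1, under the minimum, so their folds are imprecise. *Igh-1b*, *A830009L08Rik*, *Ccbp2*, *Xirp2* and *Cd6* were also under it in the EC.

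Genes with 1000 or more mean normalized counts in both regions differed less. Over these 5812 genes the largest EC value belonged to *Nnat* (neuronatin), at 299.8 ppm in the EC against 62.9 in the PVC, a log2 ratio of 2.25. The calcium-binding protein gene *Necab2* (1.80), the nitric oxide synthase gene *Nos1* (1.78), *Reln* (1.77), the copine *Cpne7* (1.71), the teneurin *Odz1* (1.69), *Nov* (1.64) and *Crym* (1.64) came next. The lowest was *Arc* at −2.44, followed by the vesicle calcium sensor *Syt2* (−2.06), the potassium channel subunit *Kcnab3* (−1.98), *Stac2* (−1.95), the sialomucin *Cd34* (−1.95), the presynaptic active zone gene *Rims3* (−1.89) and the transcription factors *Fos* (−1.82) and *Egr1* (−1.72).

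Markers of cortical layers were described next, and most of those of layer 4 had a larger share in the PVC. Of 8 layer 4 markers, 7 had a larger share in the PVC and 3 were at least 2-fold higher there (37.5%, against 1.58% of all kept genes). The median log2 ratio was −0.93 against 0.02 for all kept genes. The 3 were *Rspo1*, the potassium channel gene *Kcnh5* (4.39 ppm in the EC, 27.1 in the PVC) and *Rorb*, a nuclear receptor that specifies layer 4 (29.5 and 67.7). *Scnn1a*, an epithelial sodium channel subunit used to mark layer 4 of primary sensory cortex, had 6.22 and 7.82 ppm, a log2 ratio of −0.33. *Unc5d*, a netrin receptor gene, was the exception, with 0.56. As the tissue was bulk, fewer cells of a type and less RNA per cell cannot be told apart here or in any result below.

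Entorhinal layer markers were mostly on the other side. Of 11, 9 had a larger share in the EC, and the median was 0.69. At least 2-fold higher were 4 in the EC (36.4%, against 2.76% of all kept genes) and 1 in the PVC (9.09%, against 1.58%). These shares of all kept genes are the base for the counts of each list below. The base covers genes of all expression levels, and more genes were kept through their EC mean only than through their PVC mean only. In a list with weakly expressed genes, a percentage above the EC base can therefore come in part from the filter. *Reln*, the extracellular protein made by stellate cells of layer 2, had 380.4 ppm in the EC against 112 in the PVC. *Wfs1*, which marks pyramidal cells of the superficial EC, had 275 and 132, and *Calb1*, the calbindin of those cells, 171 and 106. *Fign*, a microtubule-severing protein, showed the widest gap, with 12.6 and 2.23 ppm (chromosome 2, 63809564 to 63936095, NCBIM37), and the zinc finger gene *Trps1* had a log2 ratio of 1.11. *Nefm*, a neurofilament subunit, was the 1 member at least 2-fold higher in the PVC, at 135 and 289.5 ppm. *Reln* and *Calb1* are also made by interneurons, which the bulk values do not separate.

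Markers of layers 2 and 3, 5 and 6 gave mixed values. The 8 layer 2 and 3 markers had a median of −0.65, so a larger PVC share was not limited to layer 4. Of these markers, 5 were at least 1.5-fold higher in the PVC, among them *Cux2* (−0.88, also on the layer 4 list), *Cux1* (−0.59), the Ras regulator *Rasgrf2* (−0.81) and *Pou3f2* (−1.37), while the adhesion protein gene *Mdga1* had 1.22. The 12 layer 5 markers had a median of 0.17 and ran from −0.46 for *Fezf2*, the factor of corticospinal neurons, to 1.64 for *Crym*, a thyroid hormone-binding crystallin. Among 13 markers of layers 6 and 6b, 4 were at least 2-fold higher in the EC (30.8%, against 2.76% of all kept genes). They were *Moxd1* (1.48), *Nxph4* (1.19), *Ctgf* (1.14) and *Nr4a2* (1.13). *Cplx3*, another marker on this list, took near equal shares, with a log2 ratio of 0.004. *Foxp2* (−1.42) and *Syt6* (−1.07), found in corticothalamic cells, were at least 2-fold higher in the PVC, and *Tbr1*, a factor of the same cells, had −0.60.

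**Figure D2:**
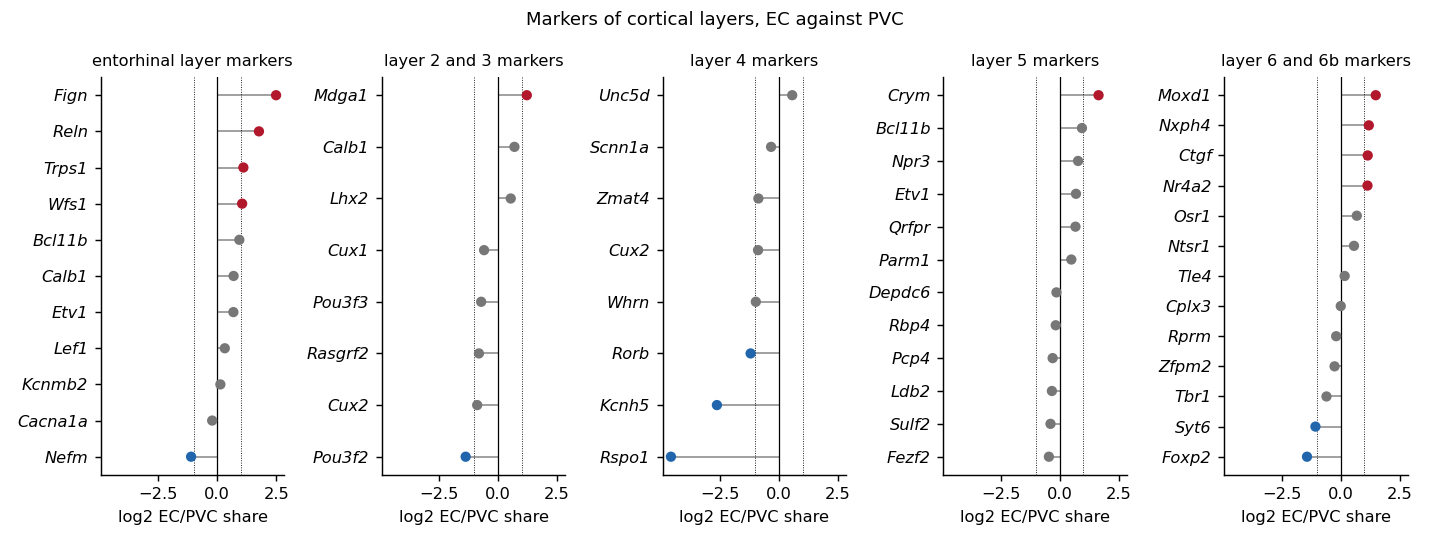
Log2 of EC share over PVC share (x axis) for each kept marker of 5 layer lists, 1 panel per list and 1 point per gene. Red points are at least 2-fold higher in the EC and blue points at least 2-fold higher in the PVC, with dotted lines at those limits. Layer 4 markers reach −4.57 and entorhinal layer markers 2.49.

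Transcription factors that pattern cortical areas differed little as a group. Of 17 listed, 16 were kept, with a median of 0.07, 1 at least 2-fold higher in the EC against 0 in the PVC. The 1 was *Nr2f2*, a nuclear receptor also made by caudal ganglionic eminence interneurons, at 58.9 ppm in the EC against 12.7 in the PVC (log2 ratio 2.21). Its paralog *Nr2f1*, which sets up caudal cortex, had −0.35, and *Emx2*, *Pax6* and *Lhx2*, which shape the early area map, had −0.11, −0.01 and 0.54. The lowest value was −0.75, for *Tshz3*.

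Peptide signalling held some of the widest gaps. Neuropeptides act slowly, by volume transmission, through G protein-coupled receptors. Of 20 neuropeptide genes 16 were kept, 3 at least 2-fold higher in the EC against 3 in the PVC, with a median of −0.07. On the EC side were *Trh*, *Nts* (neurotensin; 4.15 ppm in the EC against 0.654 in the PVC) and *Penk* (enkephalin precursor; 66.9 and 22.7). On the PVC side were *Pdyn* (dynorphin precursor; 8.31 and 28.1), *Crh* (2.07 and 4.58) and *Adcyap1* (6.63 and 14.1). *Vip* and *Npy*, made by interneurons, each had −0.77, *Sst* 0.35 and *Cck* −0.13.

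The receptors were more one-sided. Of 30 neuropeptide receptor genes 25 were kept, 7 at least 2-fold higher in the EC (28% of those kept, against 2.76% of all kept genes) and 0 in the PVC, with a median of 0.16. *Trhr*, the receptor for thyrotropin-releasing hormone, had 24.7 ppm in the EC against 2.83 in the PVC, a log2 ratio of 3.12, so that ligand and receptor were both higher in the EC. A second receptor gene for the same peptide, *Trhr2*, which is outside the lists and was looked up after the values were seen, had −2.08. The other 6 were *Nmbr*, the neuromedin B receptor (3.09), *Vipr2* (1.75), *Oxtr*, the oxytocin receptor (1.52), *Tacr3* (1.46), *Npy2r* (1.25) and *Oprm1*, the mu opioid receptor (1.01). *Trhr*, *Nmbr*, *Vipr2*, *Tacr3* and *Oprm1* were kept through their EC mean only. Their PVC mean normalized counts were 76.5, 22.7, 23.8, 47.7 and 49.9, under the minimum. Part of the one-sidedness can therefore come from the filter, which admits low genes of the EC more readily. Among the opioids, *Penk* and *Oprm1* were at least 2-fold higher in the EC, while *Pdyn* had −1.76 and its kappa receptor *Oprk1* −0.86.

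Receptors for the diffuse monoamine and acetylcholine systems varied by subtype. Of 14 serotonin receptor genes 10 were kept, 4 at least 2-fold higher in the EC (40% of those kept, against 2.76% of all kept genes) and 0 in the PVC, with a median of 0.57. *Htr2c* had 70.4 ppm in the EC against 22.1 in the PVC, *Htr1a* 37.3 and 16.2, *Htr4* 4.62 and 1.28, and *Htr5b* 3.30 and 1.57. *Htr4* and *Htr5b* were kept through their EC mean only, as their PVC mean normalized counts were 34.6 and 42.6, under the minimum. The 40% can therefore come in part from the filter, whereas *Htr2c* and *Htr1a* passed the minimum in both regions. *Htr5a* (−0.30) and *Htr2a* (0.36) were within 1.5-fold. Of 5 dopamine receptor genes only *Drd1a* was kept (0.90). Among 10 kept acetylcholine receptor genes, the muscarinic receptors lay at both ends, with *Chrm5* at 3.90, *Chrm2* at −1.62 and the main cortical subtype *Chrm1* at 0.01. The PVC mean normalized count of *Chrm5* was 6.43, under the minimum, so its value is imprecise. Of 8 kept adrenergic receptor genes, *Adra2a*, which encodes an inhibitory receptor, was the 1 at least 2-fold different, at 34.3 ppm in the EC against 12.2 in the PVC.

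Receptors for the fast transmitters were closer to equal. Of 24 kept glutamate receptor genes none was at least 2-fold different, and the median was 0.28, with *Grin3a* (0.77) and *Grm5* (0.65) at the top and *Grik4* (−0.66) at the bottom. The AMPA receptor gene *Gria2* had −0.01 and the NMDA receptor gene *Grin1* −0.10. Among 15 kept GABA receptor genes the median was −0.10. *Gabra5*, the alpha subunit of an extrasynaptic receptor prominent in the hippocampus, had 104 ppm in the EC against 46.0 in the PVC, and *Gabrd*, the delta subunit of other extrasynaptic receptors, had 28.1 and 67.3. The alpha subunit gene *Gabra2* had 0.85.

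Potassium channels set the resting potential and repolarize neurons. Of 91 potassium channel genes 71 were kept, with a median of −0.24. At least 2-fold higher were 5 in the EC (7.04%, against 2.76% of all kept genes) and 6 in the PVC (8.45%, against 1.58%). *Kcng1*, a modifier subunit, had 102 ppm in the EC against 21.0 in the PVC, and *Kcna5* 5.75 and 1.61, while *Kcnab3*, a beta subunit, had 21.5 and 84.8 and *Kcnq5*, of the M current, 60.6 and 125. *Kcnq1* (1.73), *Kcnj13* (1.46) and *Kcnn3* (1.22) were the others on the EC side, and *Kcnh5* (−2.62), *Kcng4* (−1.49), *Kcnh4* (−1.26) and *Kcnh7* (−1.01) on the PVC side. *Kcna5*, *Kcnq1* and *Kcnj13* were kept through their EC mean only, with PVC mean normalized counts of 43.6, 17.6 and 31.3. The 7.04% can therefore come in part from the filter, whereas *Kcng1* and *Kcnn3* passed the minimum in both regions. Of 35 kept sodium, calcium and HCN channel genes, with a median of 0.07, 3 were at least 2-fold higher in the EC, among them *Hcn4* (1.62) and *Cacng5* (1.30), and *Scn4b* (−2.59) was so in the PVC. *Scn1a*, abundant in fast-spiking interneurons, had 139 ppm in the EC against 263 in the PVC.

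**Figure D3:**
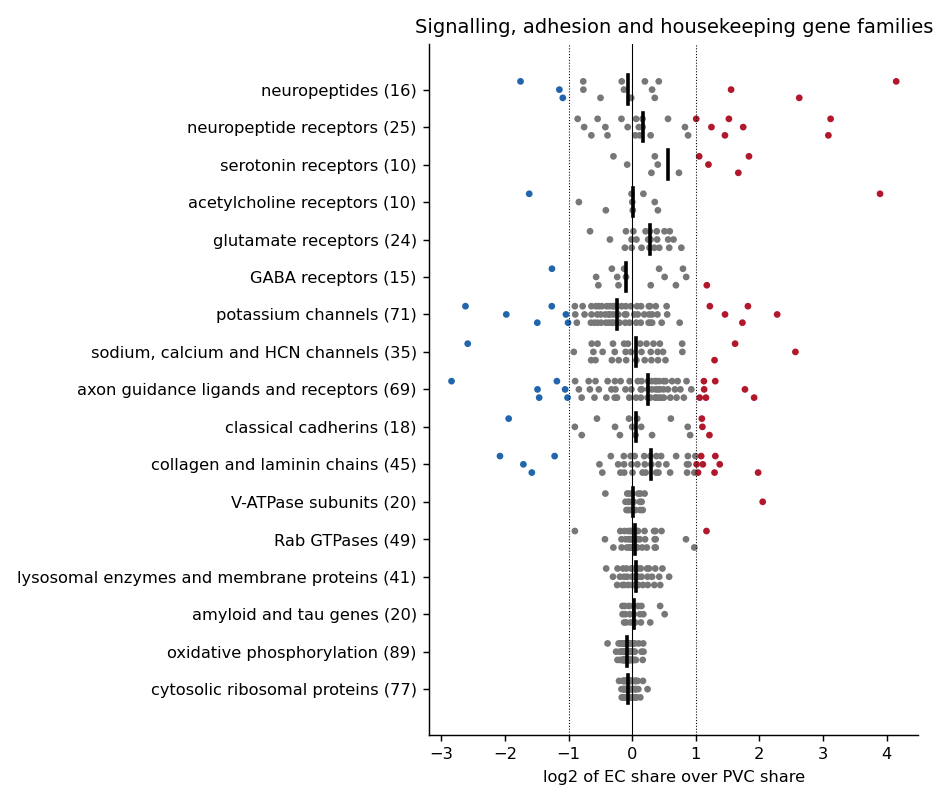
Log2 of EC share over PVC share (x axis) for the kept members of 17 gene families, 1 row per family with the number of members in brackets, 1 point per gene and a black bar at the median. Red points are at least 2-fold higher in the EC and blue points at least 2-fold higher in the PVC. Neuropeptides run from −1.76 to 4.15, whereas ribosomal protein and oxidative phosphorylation genes lie between −0.39 and 0.24.

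Interneuron markers had no common direction. Of 33 listed 32 were kept, 16 with a larger share in the EC against 16 in the PVC, and the median was 0.00. The pan-GABAergic genes *Gad1*, *Gad2* and *Slc32a1*, which make GABA and load it into vesicles, had −0.30, −0.03 and −0.37. *Pvalb*, the calcium buffer of fast-spiking basket cells, had 14.1 ppm in the EC against 44.9 in the PVC, and *Syt2*, the vesicle calcium sensor of their terminals, 24.7 and 103. Both were at least 2-fold higher in the PVC, as were *6330527O06Rik* (also known as *Lamp5*; −1.29) and *Crh* (−1.15). On the EC side were *Nos1*, the neuronal nitric oxide synthase (208 and 60.7), *Reln*, and *A930038C07Rik* (also known as *Ndnf*; 1.24). *Lhx6*, the factor shared by parvalbumin and somatostatin cells, had 0.03.

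Glutamatergic markers, by contrast, included 2 genes at least 2-fold higher in the PVC and 0 in the EC among 12, with a median of −0.13. One of them was *Nrgn*, the postsynaptic calmodulin-binding neurogranin, with 435 ppm in the EC against 904 in the PVC. The vesicular glutamate transporter *Slc17a7* (0.16) and the kinase *Camk2a* (−0.18) were within 1.5-fold, and both labelled tissues therefore held the defining transcripts of cortical excitatory neurons at like shares.

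After the myelin markers, immediate early genes had the lowest median of all lists. They are transcribed within minutes of neuronal firing, many through the factor CREB, which binds the cAMP response element TGACGTCA or its shorter core TGACG in their promoters. Of 21 listed, all were kept, 11 were at least 2-fold higher in the PVC (52.4%, against 1.58% of all kept genes) and 0 in the EC, with a median of −1.03. Summed over the list, the share was 961 ppm in the EC against 2303 in the PVC. The promoters of 4 of the 11 are shown because they hold these motifs. Each is 250 bases before and 50 after the annotated start, from RefSeq on GRCm38.p6, written 5′ to 3′ on the gene's own strand, and the capitals mark TGACG, its reverse complement CGTCA, or both where they overlap as TGACGTCA.

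Fos promoter, chr12:85473640-85473939 (+): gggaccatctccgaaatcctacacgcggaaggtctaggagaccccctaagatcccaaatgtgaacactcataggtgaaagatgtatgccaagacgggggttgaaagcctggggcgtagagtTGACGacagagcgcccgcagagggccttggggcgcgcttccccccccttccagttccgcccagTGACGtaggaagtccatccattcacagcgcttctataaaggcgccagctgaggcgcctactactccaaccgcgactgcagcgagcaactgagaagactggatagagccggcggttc
Nr4a1 promoter, chr15:101266596-101266895 (+): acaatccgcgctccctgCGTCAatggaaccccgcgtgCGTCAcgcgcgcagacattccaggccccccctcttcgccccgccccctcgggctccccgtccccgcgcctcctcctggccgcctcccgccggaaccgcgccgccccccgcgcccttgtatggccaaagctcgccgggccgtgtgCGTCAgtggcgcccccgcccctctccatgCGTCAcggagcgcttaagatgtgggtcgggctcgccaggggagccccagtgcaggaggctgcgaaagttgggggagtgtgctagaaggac
Dusp1 promoter, chr17:26508423-26508722 (-): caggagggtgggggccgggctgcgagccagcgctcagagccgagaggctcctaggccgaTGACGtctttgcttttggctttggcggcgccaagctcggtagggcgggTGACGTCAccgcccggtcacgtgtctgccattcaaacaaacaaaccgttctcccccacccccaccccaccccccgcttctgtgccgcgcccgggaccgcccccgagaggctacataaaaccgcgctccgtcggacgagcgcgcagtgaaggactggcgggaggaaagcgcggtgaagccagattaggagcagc
Btg2 promoter, chr1:134079106-134079405 (-): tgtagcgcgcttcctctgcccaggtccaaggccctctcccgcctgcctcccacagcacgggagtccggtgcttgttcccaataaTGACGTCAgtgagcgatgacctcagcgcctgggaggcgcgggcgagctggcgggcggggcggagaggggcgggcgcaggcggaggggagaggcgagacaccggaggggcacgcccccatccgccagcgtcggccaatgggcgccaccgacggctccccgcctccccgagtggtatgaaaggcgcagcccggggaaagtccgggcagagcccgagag

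*Arc*, the synaptic scaffold protein whose mRNA travels to active dendrites, had 84.9 ppm in the EC against 459.6 in the PVC, 5.41-fold higher in the PVC (chromosome 15, 74499513 to 74503000, minus strand, NCBIM37). *Egr1* had 156 and 515, *Egr2* 5.05 and 23.1 and *Egr3* 41.7 and 85.3, all zinc finger factors. *Fos*, whose promoter above holds TGACG 2 times, had 22.99 and 80.9 ppm, and its partner *Junb* 45.4 and 95.2. *Nr4a1*, an orphan nuclear receptor gene with 4 such motifs, had 74.2 and 213. *Npas4*, which responds selectively to calcium influx, had 27.4 and 69.4. The remaining genes at least 2-fold higher in the PVC were *Ier2* (−1.52), the antiproliferative *Btg2* (−1.26) and the MAP kinase phosphatase *Dusp1* (−1.25), the last a gene with 3 motifs.

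Other members of the list were lower in amplitude or went the other way. *Fosb* (−0.98), *Dusp6* (−0.97) and the scaffold *Homer1* (−0.91) were just under 2-fold, and the secreted factors *Nptx2* and *Bdnf* had −0.66 and −0.61. *Jun* was at least 1.5-fold higher in the EC, at 74.8 ppm in the EC against 47.4 in the PVC, and *Nr4a3* (0.26), *Klf4* (0.10) and *Fosl2* (−0.07) were near equal. The ratio thus ran from −2.44 to 0.66 within 1 list.

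**Figure D4:**
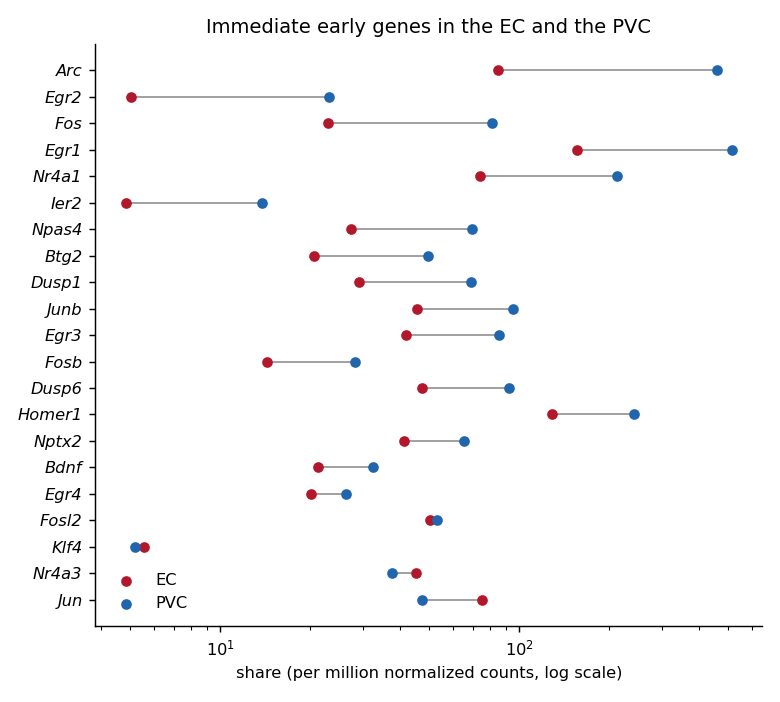
Share of the 21 immediate early genes in the EC (red) and the PVC (blue), in ppm on a log scale, with 1 row per gene and a grey line joining its values. Genes are ordered by ratio, from *Arc*, 5.41-fold higher in the PVC, to *Jun*, 1.58-fold higher in the EC. Shares are not divided by gene length.

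RefSeq promoter windows were found for 16 of the 21 genes, 27 windows in all, since a gene with several starts has several. TGACG, searched on both strands, was in 15 of the 27 (55.6%), against 29.9% of the 12055 windows of kept genes and 20.8% of all 32851 windows in the table. For the 11 genes at least 2-fold higher in the PVC, 7 had windows, and 9 of these 11 windows (81.8%) held it. The full TGACGTCA, which always contains the shorter core, was in 2 of the 27 windows, those of *Dusp1* and *Btg2*, and in 2.99% of windows of kept genes. *Arc*, *Egr1*, *Egr3* and *Ier2* were not matched. A match is a run of letters only.

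Among glial and vascular lists, that of oligodendrocytes and myelin stood on the PVC side. Of 18 markers, 18 had a larger share in the PVC and 15 were at least 2-fold higher there (83.3%, against 1.58% of all kept genes), with a median of −1.31, and none was at 0 in either region. *Mbp*, a main myelin protein, had 471 ppm in the EC against 1196 in the PVC. *Mobp* (−1.60), *Mag* (−1.55) and *Mog* (−1.48), also of the myelin sheath, were of like size, and *Gjb1*, the gap junction gene connexin 32, was lowest at −1.64. The lineage factor *Sox10*, which precursors also make, had −0.41. The list summed to 1057 ppm in the EC against 2635 in the PVC. Of 9 kept oligodendrocyte precursor markers 0 were at least 2-fold different, and their median was 0.27, with *Pdgfra* at 0.55 and *Olig2* at −0.06. The amount of white matter in the dissected pieces was not measured, and its part in these values was not tested.

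Meningeal fibroblast markers stood on the EC side, as 14 of 14 had a larger share there and 10 were at least 2-fold higher (71.4%, against 2.76% of all kept genes), with a median of 1.26. *Dcn*, the matrix proteoglycan decorin, had 92.1 ppm in the EC against 10.8 in the PVC (8.53-fold). *Slc13a4* (1.51), *Aldh1a2* (1.44), *Ogn* (1.31), *Slc6a13* (1.29) and *Slc22a6* (1.28), genes of the pial and arachnoid cells, and the fibrillar collagens *Col1a1* (1.08), *Col1a2* (1.03) and *Col3a1* (1.29), differed less than *Dcn*. The list summed to 407 ppm in the EC against 163 in the PVC, with none of its 14 genes at 0. Fibroblasts around vessels make several of these genes too, and the part of meningeal tissue in the EC values was not tested.

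Other cell classes were near equal. Of 18 astrocyte, 21 microglia and 15 endothelium markers, 0 were at least 2-fold different in either direction, with medians of 0.13, 0.05 and 0.04. *Gfap* (0.64) and *Aqp4* (0.57), astrocyte genes that are strong at the brain surface and around vessels, were the highest of their list, whereas the pan-astrocyte genes *Slc1a2* and *Aldh1l1* had 0.02 and −0.33. Microglia markers lay between −0.11 for *Trem2* and 0.34 for *Cd68*. The 9 mural cell markers had a median of 0.35, with *Acta2* at 0.67 and *Pdgfrb* at 0.14.

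Markers of neighbouring structures were looked at because a dissected piece can include them. Of 18 dentate gyrus and hippocampus markers 13 were kept, with 3 at least 2-fold higher in the EC (23.1%, against 2.76% of all kept genes) and 0 in the PVC. The 3 were *Fibcd1* (54.3 ppm in the EC, 12.2 in the PVC), *C1ql2* (6.57 and 1.87) and *Necab2* (131 and 37.5). *Prox1*, the factor that defines dentate granule cells, had −0.23, and their markers *Dsp*, *Tdo2* and *Lct* fell under the minimum in both regions. Of 10 striatum markers 8 were kept, and *Tmem90a* (2.08), *Penk* (1.56) and *Gpr6* (1.16) were at least 2-fold higher in the EC (37.5%, against 2.76% of all kept genes). *Tmem90a* and *Gpr6* were kept through their EC mean only, with PVC mean normalized counts of 82.6 and 44.4. The 37.5% can therefore come in part from the filter. *Ppp1r1b*, also of striatal projection neurons, had −0.16. Among 8 kept thalamus markers *Ntng1* had 1.92 and *Tcf7l2* −0.90. The 4 subiculum markers were mixed, with *Nts* at 2.63, *Fn1* at 0.93, *Tshz2* at 0.42 and *Slc17a6* at −0.65. Only 5 of 15 choroid plexus markers were kept. *Ttr*, which that tissue makes in large amounts, had 3.14 ppm in the EC against 14.0 in the PVC, and *Kcnj13* 3.23 and 1.16. The part of neighbouring tissue in any of these values was not tested.

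**Figure D5:**
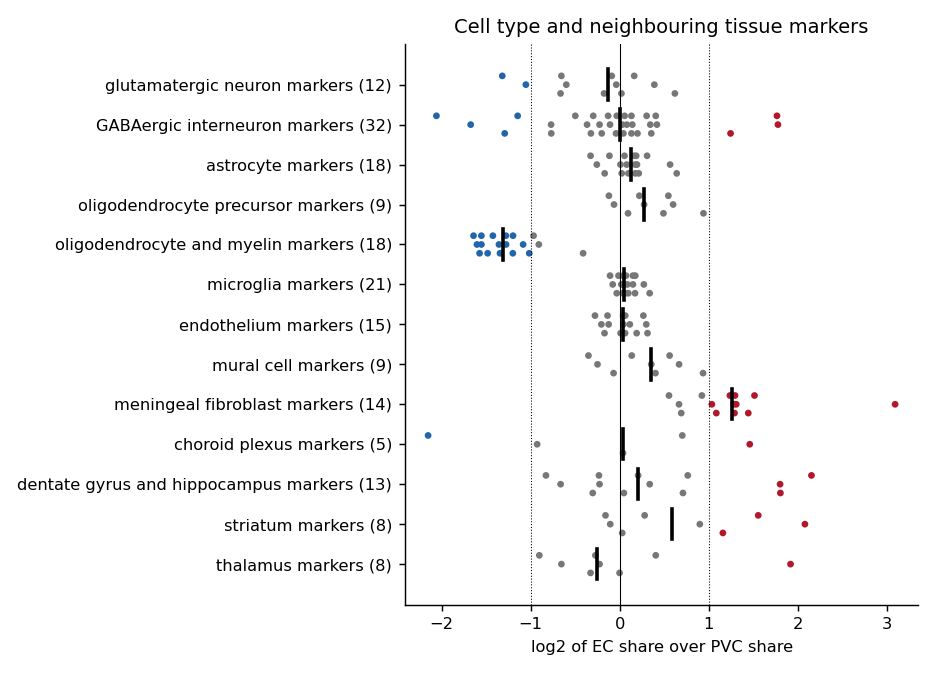
Log2 of EC share over PVC share (x axis) for the kept markers of 13 cell types and neighbouring structures, 1 row per list with the number of genes in brackets, 1 point per gene and a black bar at the median. Myelin markers lie wholly below 0 with a median of −1.31, meningeal fibroblast markers wholly above 0 with a median of 1.26, and microglia markers between −0.11 and 0.34.

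Genes that guide axons and hold cells together differed gene by gene. Of 73 axon guidance genes 69 were kept, with a median of 0.25. At least 2-fold higher were 7 in the EC (10.1%, against 2.76% of all kept genes) and 6 in the PVC (8.70%, against 1.58%). On the EC side were the netrin-like *Ntng1* (91.7 ppm in the EC, 24.3 in the PVC), the semaphorin receptor *Nrp2* (75.6 and 22.1), the netrin receptor *Dcc* (1.31), *Slit1* (1.16), *Epha6* (1.13), *Epha3* (1.13) and *Sema3d* (1.06). On the PVC side were *Robo3*, *Ntn5* (−1.49), *Sema7a*, a membrane-bound semaphorin (66.6 and 184), *Ephb6* (−1.18), *Ephb3* (−1.05) and *Efna5* (−1.02).

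Of 18 kept cadherins, *Cdh1* (2.32-fold), *Cdh9* (2.15-fold) and *Cdh4* (2.14-fold) were at least 2-fold higher in the EC and *Cdh6* (4.14 ppm in the EC, 15.96 in the PVC) in the PVC. Among 33 kept protocadherins *Pcdh19* (1.17) and *Pcdh8* (1.03) were at least 2-fold higher in the EC, and the median was 0.13. The clustered protocadherins are near copies of each other, and reads of *Pcdhb* genes, which lay between −0.65 and 0.51, can be split among them. Of 45 kept collagen and laminin chains 8 were at least 2-fold higher in the EC (17.8%, against 2.76% of all kept genes) and 4 in the PVC (8.89%, against 1.58%). The EC genes were led by *Col23a1* (68.9 and 17.4) and *Lamb1* (38.4 and 14.8), and 3 of the 8, *Col1a1*, *Col1a2* and *Col3a1*, are also on the meningeal list. *Col3a1*, *Col13a1* and *Col6a3* were kept through their EC mean only, with PVC mean normalized counts of 40.3, 33.7 and 95.0. The PVC genes were *Col24a1* (−2.08), *Col11a1* (−1.71), *Col15a1* (−1.58) and *Col5a1* (−1.22). Of 12 kept genes of the perineuronal net and its matrix, *Tnc* (tenascin C, 1.97) was at least 2-fold higher in the EC and the link protein genes *Hapln4* (−1.07) and *Hapln2* (−1.29, made by oligodendrocytes) in the PVC, while the core proteoglycan *Acan* had −0.19.

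Genes tied to AD and to the endosomal–lysosomal system took nearly equal shares. Of 20 amyloid and tau genes none was at least 1.5-fold different, with *App* at 1811 ppm in the EC against 1791 in the PVC, *Mapt*, which encodes tau, at 584 and 599.96, and *Bace1*, the beta-secretase, at 141 and 128. The 15 kept orthologs of AD risk genes lay between −0.44 for *Mef2c* and 0.25 for *Plcg2*. The LDL receptor family and lipid carriers lay between −0.29 for *Sorl1* and 0.52 for *Lcat*. Reads assigned to mouse *Apoe* were 12.9 ppm in the EC against 12.7 in the PVC, a row that does not measure the human transcript these mice make.

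Of 20 kept V-ATPase subunit genes, which acidify endosomes and lysosomes, 19 were within 1.5-fold. The exception was *Atp6v1c2*, an isoform of the C subunit otherwise known from kidney and lung, at 4.45 ppm in the EC against 1.06 in the PVC, while its ubiquitous paralog *Atp6v1c1* had 251 and 242. Among 49 kept Rab GTPases, with a median of 0.04, *Rab27a*, of secretory granules, was the 1 at least 2-fold different (10.9 and 4.82), and *Rab3c*, a synaptic vesicle Rab, had 924 and 469.7. The early endosome gene *Rab5c* had −0.06 and the late endosome gene *Rab7* −0.10. All 41 lysosomal genes were within 1.5-fold, from −0.41 for *Ctsz* to 0.58 for *Ctsc*.

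The lists of core machinery spanned narrow ranges. All 89 kept oxidative phosphorylation genes lay between −0.39 and 0.18, and 74 of them had a larger share in the PVC. The 77 cytosolic ribosomal protein genes lay between −0.21 and 0.24, and the 36 proteasome genes between −0.21 and 0.16. Of 17 kept MHC class I and interferon genes 0 were at least 2-fold different, although *H2-T23*, whose close relatives can share reads, had −0.87. Among 11 kept complement genes *C2* (1.18) and *Serping1*, the C1 inhibitor (1.07), were at least 2-fold higher in the EC and *C1ra* (−2.02) in the PVC. The C1q chains of microglia, *C1qa*, *C1qb* and *C1qc*, had −0.01, −0.03 and 0.04.

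The genes that differed most were weakly expressed. The 368 genes at least 2-fold higher in the EC had a median mean normalized count, averaged over the regions, of 281 and the 211 of the PVC one of 446, against 1137 for all kept genes. Among the 2664 genes of lowest mean expression, 7.39% were at least 2-fold higher in the EC and 3.19% in the PVC, and among the 2664 of highest mean expression 0.901% and 0.676%. Gene models differed little by comparison. The median exon length was 3945 bases for the EC genes, 3333.5 for the PVC genes and 3882 for all, and the median GC content was 50.3%, 52.7% and 50.5%. Over all kept genes with these values, the log2 ratio had a Spearman correlation of 0.05 with exon length and −0.03 with GC content.

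Their promoters had fewer CG dinucleotides. The median number per window of 300 bases was 11 for genes at least 2-fold higher in the EC (293 windows of 247 genes), 14 for those of the PVC (194 windows of 139 genes) and 20 for all kept genes. TATAAA, the core of the TATA box, searched on both strands, was in 10.6% and 10.8% of these windows and in 7.03% of those of all kept genes. TGACG was in 19.5% and 25.3%, against 29.9%. By chromosome, leaving out the Y with 0 of 4 genes, the share of genes at least 2-fold higher in the EC ran from 1.14% on chromosome 7 to 4.72% on the X, where 21 of 445 genes were so.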

How the data were processed

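RNA from dissected EC and PVC was made into poly(A)+ libraries (TruSeq v2, Trizol extraction), with 29 per region, and sequenced as 149 bp single-end reads. Per the labels and the study's methods, the authors aligned reads to mm9 with TopHat (2.0.6) and Bowtie (2.0.2.0), counted them per gene with HTSeq over an NCBIM37 annotation, and normalized them with DESeq2 (1.10.1). The deposited signal used here is, for each gene, the average of its size factor-scaled counts, taken over the 29 libraries of a region. The deposited log2 fold changes, standard errors, Wald statistics and p-values of the genotype comparison were not used. The labels give 2 EC and 5 PVC libraries as run more than once.

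From these means, shares and log2 ratios were computed in Python 3.11.15 with numpy 2.4.6 and pandas 2.3.3, and tested on simulated data. Figures were drawn with matplotlib 3.10.9. There is no spread between mice in the means, and library totals were not analysed here, so no interval was computed. Of the kept genes 97.8% matched the NCBIM37 annotation (GENCODE vM1), 121 of them by a name that several loci share, and 25 listed symbols are calendar dates. The kit does not mark strand, so a gene and its antisense partner cannot be told apart.

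Genes named are the 15 highest and lowest ratios, the 8 highest and lowest with 1000 or more in both regions, the genes beside the minimum, and members of the lists described, first those at least 2-fold different, at either end or written first. The rule also takes the 10 genes with the largest share in each region, of which only members of the lists are described. The rule and 47 lists were chosen with earlier results of these data known, and 2 further lists after the values were seen. Alternatives tried were other scalings, added counts, minimums and folds, and removal of a trend fitted to expression level, GC content and exon length. Some members of the lists are counted but not reported by name here.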

Additional observations from a re-analysis of the deposited data

How the results depend on the processing

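No paired analysis was possible because each deposited column holds 1 mean per region, and for the same reason no library could be left out. Centring the ratios on their median, leaving the 20 most abundant genes out of the sums, adding 5 in place of 0.5, requiring an average of 100 over the regions and setting the minimum on the share gave between 301 and 368 genes at least 2-fold higher in the EC and between 194 and 244 in the PVC. With a trend fitted to expression level, GC content and exon length removed they were 274 and 220. These scalings moved the median of all genes by less than 0.1. A minimum of 1000 left 109 and 68 genes, a minimum of 10 gave 717 and 359, and a threshold of 1.5-fold 843 and 543.

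List medians were taken to have moved when they shifted by 0.1 or more. With a minimum of 1000 the median was 0.81 for entorhinal layer markers, −0.033 for area factors, 0.52 for hippocampus, 0.14 for subiculum, 0.087 for striatum, 0.14 for mural cells, −0.93 for choroid plexus, 1.16 for meningeal fibroblasts, 0.11 for neuropeptides, 1.20 for serotonin receptors, −0.057 for sodium, calcium and HCN channels, 0.37 for axon guidance, 0.20 for collagens and laminins, 0.039 for thalamus markers and 1.49 for adrenergic receptors, the last from 1 gene. Of these the medians of area factors, choroid plexus, neuropeptides, sodium, calcium and HCN channels, thalamus markers and adrenergic receptors changed sign. Fewer genes stand behind each of these. With a minimum of 10 it was 0.34 for hippocampus, 0.21 for striatum, 0.40 for serotonin, 0.14 for dopamine and 0.10 for GABA receptors, of which the last changed sign. An average of 100 gave −0.93 for choroid plexus, again of the other sign, and 0.40 for serotonin receptors, and the minimum on the share 0.40 for the latter. Removal of the trend gave 0.46 for layer 5, −0.16 for area factors, 0.13 for oligodendrocyte precursors, −0.20 for choroid plexus, 1.05 for meningeal fibroblasts, 0.41 for serotonin and −0.36 for adrenergic receptors, and 0.20 for collagens and laminins, with the sign of area factors and choroid plexus changed. The cause of these shifts was not tested. The medians of the myelin (−1.31), immediate early (−1.03) and layer 4 (−0.93) lists moved by less than 0.1 under every alternative that gave a value.

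Of the 368 and 211 genes at least 2-fold different, 0 changed direction under any alternative that gave them a value, which the minimum of 1000 did for 109 and 68, the average of 100 for 301 and 194, and the removal of the trend for 350 and 196. Another minimum leaves each ratio as it was. Centring and leaving abundant genes out of the sums shift all ratios alike, by −0.019 and −0.005, too little to reverse a 2-fold difference. Under these alternatives the 0 was fixed in advance and is no evidence of stability. Only the larger added count and the removal of the trend alter genes singly. Folds of genes near the minimum are the least precise.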

Other observations

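The 2 lists chosen after the values were seen concern motile cilia and genomic imprinting. Ependymal cells line the ventricles and beat with motile cilia. Of 20 genes of such cilia 9 were kept, with a median log2 ratio of 1.97. At least 2-fold higher in the EC were 6 (66.7%, against 2.76% of all kept genes), and 0 were so in the PVC. *Capsl* had 3.03 ppm in the EC and 0.246 in the PVC, *Sec14l3* 8.89 and 0.814, *Wdr16* 6.17 and 1.17, *Hydin* 4.10 and 0.792, *Rsph4a* 6.93 and 1.75 and *Dnahc9* 8.19 and 3.85. The master factor of motile cilia, *Foxj1*, went the other way, at 2.16 and 2.88 ppm. Because the list was drawn up after *Capsl* and *Sec14l3* were seen among the highest genes, its median and counts describe these genes only.

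Imprinted genes are expressed from 1 parental copy. Of 24 listed 22 were kept, with a median of 0.26. At least 2-fold higher in the PVC were 0, and in the EC 5 (22.7%, against 2.76% of all kept genes). These were *Dlk1* (25.8 ppm in the EC and 1.93 in the PVC), *Dio3* (9.58 and 0.903), *Nnat* (2.25), *Magel2* (1.41) and *Zim1* (1.02). In the PVC *Dlk1* and *Dio3* had mean normalized counts of 52.1 and 24.4, under the minimum. The 22.7% can therefore come in part from the filter. *Dlk1* and *Dio3* lie in 1 imprinted cluster, at 110691033 to 110701546 and 111517278 to 111519307 on chromosome 12 (NCBIM37). Their neighbours in the cluster took like shares in both regions, with log2 ratios of −0.01 for the noncoding RNA gene *Meg3* and 0.26 for *Rtl1*.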
